A study of Mus musculus with 49 samples.

Results

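Sets of libraries of 1 diploid mouse embryonic stem (ES) cell line, listed under the conditions 1CDU and NoSort, were compared by single-cell Hi-C, which maps the DNA contacts held together by cross-linking inside single nuclei. The cells are those of the deposited table for diploid cells in 2i that passed the authors' quality control. They number 401 cells in 4 libraries of 1CDU and 420 cells in 5 libraries of NoSort. These 821 cells are part of 1992 passing cells in that table and of 4098 passing cells among 5871 listed in the series. All came from an F1 hybrid line of a 129/SV-Jae and castaneus cross and, by the name of the table, from culture in 2i medium, which keeps ES cells undifferentiated with a pair of kinase inhibitors and was used here without feeder cells. The labels describe fixation with formaldehyde, permeabilisation and restriction digestion in the nucleus for all libraries, and staining for Hoechst and Geminin for libraries that were sorted. They do not say what the name 1CDU stands for, and NoSort names a condition without a sort. By its title, the series asks how chromosome organisation depends on the stage of the cell cycle.

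Chromosomes are rebuilt in each cell cycle. In mitosis they are compact rods whose contacts fall at intermediate distances, and neither domains nor compartments are seen. In G1 they decondense, topological domains (stretches that contact themselves more than their neighbours) and A and B compartments (active and inactive chromatin that each contact their own kind) return, and in S phase the amount of early-replicating DNA grows before that of late-replicating DNA. In Hi-C a restriction enzyme cuts the cross-linked DNA and the ends are ligated, so DNA that stays uncut gives fewer informative ligations. The condition therefore has to be read together with the digestion of its cells.

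The authors gave each passing cell a group, namely post-M (just after mitosis), G1, early-S, late-S/G2 or pre-M (just before mitosis), and 15 measures that are compared here. Of these, 4 describe the range of contacts: the short-range share (contacts in a near band of distances), the mitotic-band share, the mean distance of far contacts, and the share of contacts between chromosomes. Another 4 describe structure within and between chromosomes, namely insulation at domain borders, the compartment scores in cis and in trans, and the alignment score, a measure that its name places between chromosomes. The enrichment of loops named EE and LL is on a log2 scale, and the replication score is by its name a measure of replicated DNA. The remaining 4 describe the library: contacts per cell, the share without digestion, the duplicated share of fragment ends and the largest deviation of chromosome coverage. Band limits and score scales are not given in the sources used here, so scores are compared only within this table.

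The library, 1 GEO sample, was the unit of comparison. The 1CDU libraries are named diploid 11, 12, 13 and 2_14, and they held 77, 122, 134 and 68 passing cells. The NoSort libraries diploid 27, 28_29, 30_31, 32_33 and 34_35 held 16, 122, 104, 100 and 78, from 9 batch numbers. The 8 libraries found in the deposited list of cells used 8 sequencing lanes, 1 each, so a lane effect and a library effect cannot be told apart. That list gives all 192 index pairs in more than 1 library and none more than once in a lane. The lane of diploid 2_14 also held 96 listed cells of the condition 1CDS1, which are not part of this comparison. No library held both conditions, and no label states separate cultures for the libraries, and the p-values describe no more than the spread among them. These p-values come from 2-sided exact permutation of the library labels with Benjamini-Hochberg adjustment over the measures of a comparison. With 4 against 4 libraries there are 70 relabellings and the smallest possible p is 0.0286, so that at least 9 of the 15 measures must reach it before any passes an adjusted 0.05. A count of 0 in such a comparison is therefore a weak statement.

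Digestion differed between the conditions, and the 2 sets did not overlap. The mean share without digestion was 26.7% in diploid 11, 38.6% in 12, 37.6% in 13 and 41.8% in 2_14, all of 1CDU. It was 47.7%, 46.3%, 48.9%, 49.1% and 48.8% in the NoSort libraries, from diploid 27 to 34_35. The library means were 36.2% ± 6.54 (SD, n = 4) in 1CDU and 48.2% ± 1.21 (SD, n = 5) in NoSort (exact permutation, adjusted p = 0.0317 over 4 quality measures). Diploid 11 stood lowest in 1CDU, and the NoSort libraries lay close together, between 46.3% and 49.1%. These means cover passing cells only, which reached at most 55.0%. Above that value lay 166 of 372 failing NoSort cells and 11 of 171 failing 1CDU cells, so the means and their spread do not describe all listed cells. The 8 libraries of the sorted gates in the same table had 34.4% to 37.3%, inside the range of 1CDU and below every NoSort library.

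The duplicated share also separated the conditions. It was 1.93%, 2.43%, 2.34% and 1.99% in the 1CDU libraries and between 3.98% and 7.57% in the NoSort libraries, with means of 2.17% ± 0.2495 (SD, n = 4) and 5.98% ± 1.45 (SD, n = 5, exact permutation, adjusted p = 0.0317). The sorted gates had 2.504% to 3.77%. Depth did not separate the conditions. The median number of contacts per cell, averaged over libraries, was 128009 ± 27868 (SD, n = 4) in 1CDU and 118382 ± 41124 (SD, n = 5), and the libraries overlapped (exact permutation p = 0.714). Summed over passing cells, a library held between 1452452 contacts (diploid 27) and 21244885 (diploid 28_29).

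**Figure D1:**
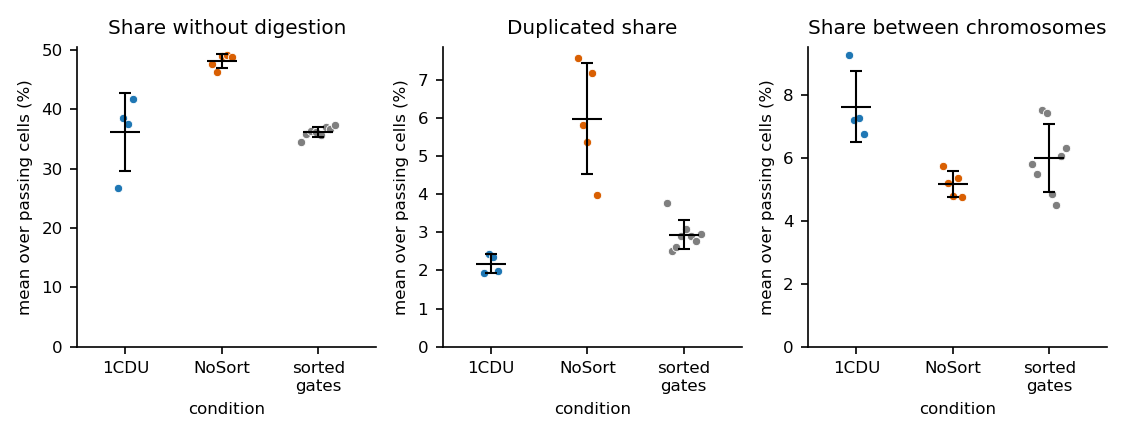
Mean over passing cells of the share without digestion, the duplicated share and the share of contacts between chromosomes (y axes, percent) for each library (points) of 1CDU, NoSort and the sorted gates of the same table, with mean ± SD over libraries in black. The NoSort libraries lie above all others in the first and second panels, at 46.3% to 49.1% without digestion and 3.98% to 7.57% duplicated.

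Cells also failed quality control in different ways. Of the listed cells, 401 of 572 passed in 1CDU and 420 of 792 in NoSort. By library the share was 83.7%, 63.5%, 69.8% and 70.8% in 1CDU and 66.7%, 63.5%, 54.2%, 52.1% and 40.6% in NoSort, and the ranges overlapped. The means were 72.0% ± 8.46 (SD, n = 4) and 55.4% ± 10.3 (SD, n = 5; exact permutation p = 0.0476, adjusted p = 0.0635), a difference that missed the threshold after adjustment. Leaving out 1 library at a time moved the difference of 16.5 points to between 12.6 (without diploid 11) and 19.4. Among passing cells of the diploid 2i table, the lowest number of contacts was 20024, the highest share without digestion 55.0% and the highest coverage deviation 0.998. Of the failing cells, 166 of 372 in NoSort were above that digestion share, and 83 of them missed none of the other 2 limits. In 1CDU these numbers were 11 of 171 and 1. Coverage deviation was above its limit in 92 of 171 failing 1CDU cells and 60 of 372 failing NoSort cells, and contacts were below theirs in 130 and 241. Among passing cells the 95th percentile of the share without digestion was 54.2% in NoSort, just under the highest passing value, and 50.0% in 1CDU.

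The conditions held different parts of the cell cycle. In 1CDU most cells were in G1 or early-S, and cells in late-S/G2 were few. In NoSort, early-S and late-S/G2 cells were about equally frequent. The G1 share was 25.97%, 29.5%, 29.1% and 30.9% in the 1CDU libraries and 18.8%, 13.1%, 9.62%, 13% and 15.4% in the NoSort libraries. Every 1CDU library lay above every NoSort library, with means of 28.9% ± 2.07 (SD, n = 4) and 13.97% ± 3.37 (SD, n = 5; exact permutation, adjusted p = 0.0265 over the 5 groups).

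The early-S share was 61.0%, 68.0%, 64.2% and 66.2% in 1CDU and 43.8%, 36.1%, 43.3%, 39.0% and 44.9% in NoSort. The means were 64.9% ± 2.99 (SD, n = 4) and 41.4% ± 3.72 (SD, n = 5), without overlap (exact permutation, adjusted p = 0.0265). The late-S/G2 share was 12.99%, 2.46%, 6.72% and 2.94% in 1CDU and 31.3%, 50.0%, 42.3%, 43.0% and 37.2% in NoSort. Here NoSort was the higher set, with means of 6.28% ± 4.86 (SD, n = 4) and 40.7% ± 7.001 (SD, n = 5; exact permutation, adjusted p = 0.0265).

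Cells next to mitosis were seen only in NoSort. Post-M was given to 11 of 420 NoSort cells, in 4 of the 5 libraries, and to 0 of 401 1CDU cells. By library, 0 cells allow a share of up to 3.90%, 2.46%, 2.24% and 4.41% in diploid 11, 12, 13 and 2_14. The post-M share of the NoSort libraries was 0%, 0.820%, 3.85%, 4% and 2.56%, from diploid 27 to 34_35. The highest, 4% in diploid 32_33, lies above the limits of diploid 11, 12 and 13 and below that of 2_14. Pooled over libraries, the limit was 0.748% in 1CDU and the share 2.62% in NoSort, but cells of a library share its processing. Pre-M was given to 3 NoSort cells and to 0 of 401 1CDU cells, with the same limits by library. Neither share passed (post-M 0% against 2.25% ± 1.79 (SD, n = 5), exact permutation adjusted p = 0.0992; pre-M 0% against 1.64% ± 2.62, adjusted p = 0.238). Limits and intervals cover counting error only. With diploid 11, 12, 13 or 2_14 left out, 3 libraries stood against 5 and no group passed (smallest exact permutation adjusted p = 0.0595), although the 3 largest differences kept their direction in each case. The smallest exact permutation p of 3 against 5 libraries is 0.0357, which does not pass when only 3 of the 5 groups reach it. Without diploid 27, whose 16 cells included 1 pre-M cell and no post-M cell, 4 groups passed.

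**Figure D2:**
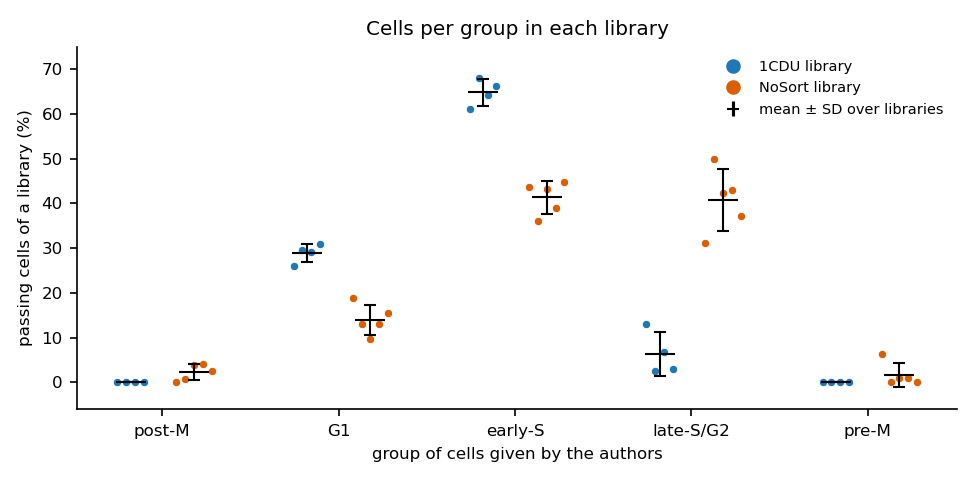
Share of a library's passing cells (y axis, percent) in each group of the authors (x axis), for the 4 libraries of 1CDU and the 5 of NoSort (points), with mean ± SD over libraries in black. The sets are apart in G1, early-S and late-S/G2, and only NoSort libraries have post-M and pre-M cells.

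The 14 cells beside mitosis show what those groups hold. In the 11 post-M cells the mitotic-band share had a median of 42.7% (36.3% to 47.6%), the far distance a median of 11.2 Mb (8.44 to 14.1) and contacts between chromosomes a median of 0.759% (0.590% to 3.96%). Insulation had a median of 1.69 (1.57 to 1.93), and the cis compartment score 0.190 (0.125 to 0.306). In the 3 pre-M cells the mitotic-band share was 16.6% to 24.6%, the short-range share 70.6% to 79.2% and insulation 1.89 to 2.05. The far distance and insulation of all 14 cells lie below the NoSort library means of G1, early-S and late-S/G2, and the mitotic-band share of the 11 post-M cells lies above them.

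Within G1, no folding measure separated the conditions. Of the 15 measures, 0 (0%) passed in 4 against 4 libraries with at least 10 G1 cells (exact permutation with Benjamini-Hochberg adjustment, smallest adjusted p = 0.214), and 2 had an unadjusted p at the smallest possible value, the share without digestion and the duplicated share. The G1 cells came to 20, 36, 39 and 21 in the 1CDU libraries and 16, 10, 13 and 12 in the NoSort libraries. Diploid 27, with 3, was left out.

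The short-range share, which grows as cells go from G1 through S phase, was 57.8% ± 0.770 (SD, n = 4) in 1CDU and 56.7% ± 1.43 (SD, n = 4) in NoSort. The far distance was 26.2, 26.2, 27.7 and 28.8 Mb in 1CDU and 30.4, 28.5, 31.4 and 28.1 Mb in NoSort, with means of 27.2 ± 1.28 and 29.6 ± 1.55 Mb (SD, n = 4 each). All but diploid 2_14 of 1CDU lay below the NoSort libraries (exact permutation p = 0.0857, adjusted p = 0.245). Insulation was 2.465 ± 0.0215 in 1CDU and 2.513 ± 0.0394 in NoSort (SD, n = 4 each; exact permutation adjusted p = 0.245). The cis compartment score was 0.354 ± 0.00951 and 0.328 ± 0.0199 (SD, n = 4 each; adjusted p = 0.245, exact permutation), and the alignment score 0.256 ± 0.0209 and 0.207 ± 0.0486 (adjusted p = 0.245). In G1 the share of contacts between chromosomes was 6.52% ± 1.17 and 5.62% ± 1.20 (SD, n = 4 each; exact permutation adjusted p = 0.429), while the share without digestion was 35.7% and 48.1% in the same cells. The other folding measures of G1 overlapped as well, with adjusted p from 0.245 to 1. Means in 1CDU and NoSort were 15.6% and 16.4% for the mitotic-band share, 0.230 and 0.229 for the trans compartment score, 0.76 and 0.81 for EE loops and 0.96 and 1.03 for LL loops (log2), and 1.10 and 1.07 for the replication score.

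Within early-S, 9 of 15 measures (60%) passed, each at the smallest p that 4 against 4 libraries allow (exact permutation, adjusted p = 0.0476). Of these 9, 4 were higher and 5 lower in 1CDU, and 2 of the 9 are the share without digestion and the duplicated share. At least 9 measures must reach that p for any to pass, so the folding measures passed only together with these 2. Digestion was known to differ between the conditions before this test. The share without digestion was 27.4%, 38.6%, 36.8% and 42.6% in 1CDU and 45.5%, 49.7%, 48.9% and 48.4% in NoSort (means 36.3% and 48.1%). The duplicated share was 1.90%, 2.49%, 2.31% and 2.01% in 1CDU and 5.63%, 5.22%, 6.72% and 4.03% in NoSort (means 2.18% and 5.40%). Neither set of values overlapped between the conditions. The early-S cells numbered 47, 83, 86 and 45 in 1CDU and 44, 45, 39 and 35 in NoSort.

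The library means of early-S had a lower short-range share and a longer far distance in 1CDU, whose cells also lay earlier within the group. Among cells of middle short-range share the far distances overlapped, as given below. With equal weight over steps of that share they did not overlap. The short-range share was 70.2%, 69.5%, 69.8% and 70.0% in 1CDU and 71.8%, 72.3%, 73.9% and 73.4% in NoSort. All 1CDU libraries lay below all NoSort libraries, by 2.95 points between means (69.9% ± 0.323 and 72.8% ± 0.969, SD, n = 4 each). The far distance was 30.6, 29.6, 29.8 and 30.0 Mb in 1CDU and 27.4, 28.2, 27.3 and 26.9 Mb in NoSort. The sets were apart by 2.56 Mb between means (30.0 ± 0.425 and 27.4 ± 0.564 Mb, SD, n = 4 each).

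Contacts between chromosomes, which bring different territories together, took 9.84%, 7.68%, 7.88% and 7.27% in the 1CDU libraries and 6.28%, 5.56%, 6.22% and 5.43% in the NoSort libraries. Every 1CDU library was above every NoSort library, and diploid 11, which also had the lowest share without digestion, was the highest. The means were 8.17% ± 1.14 and 5.87% ± 0.440 (SD, n = 4 each). The alignment score went the other way, with 0.181, 0.203, 0.208 and 0.221 in 1CDU and 0.269, 0.248, 0.255 and 0.275 in NoSort. Its means were 0.203 ± 0.0165 and 0.262 ± 0.0122 (SD, n = 4 each).

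The scores of domain borders and of compartments in cis were higher in early-S cells of 1CDU. Insulation was 2.512, 2.483, 2.495 and 2.470 in 1CDU and 2.429, 2.397, 2.431 and 2.454 in NoSort. The nearest libraries of the 2 sets were diploid 2_14 and 34_35. The means were 2.490 ± 0.0180 and 2.428 ± 0.0233 (SD, n = 4 each). The cis compartment score was 0.449, 0.431, 0.443 and 0.443 in 1CDU and 0.405, 0.381, 0.424 and 0.378 in NoSort. Its means were 0.441 ± 0.00744 and 0.397 ± 0.0218 (SD, n = 4 each). The trans compartment score did not pass (0.322 ± 0.0116 and 0.304 ± 0.0128, SD, n = 4 each; exact permutation adjusted p = 0.117).

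Loops named LL were less enriched in 1CDU, at 1.02, 0.96, 0.89 and 0.92 on the log2 scale against 1.10, 1.18, 1.09 and 1.09 in NoSort. The difference between means was -0.16 (0.95 ± 0.05 and 1.11 ± 0.04, SD, n = 4 each). Loops named EE overlapped between the sets, at 0.67 ± 0.04 and 0.77 ± 0.09 (SD, n = 4 each; exact permutation adjusted p = 0.0857). The other measures that did not pass were the mitotic-band share (11.9% in both), the replication score (1.17 and 1.19), contacts per cell (140307 and 120591) and coverage deviation (0.330 and 0.328).

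**Figure D3:**
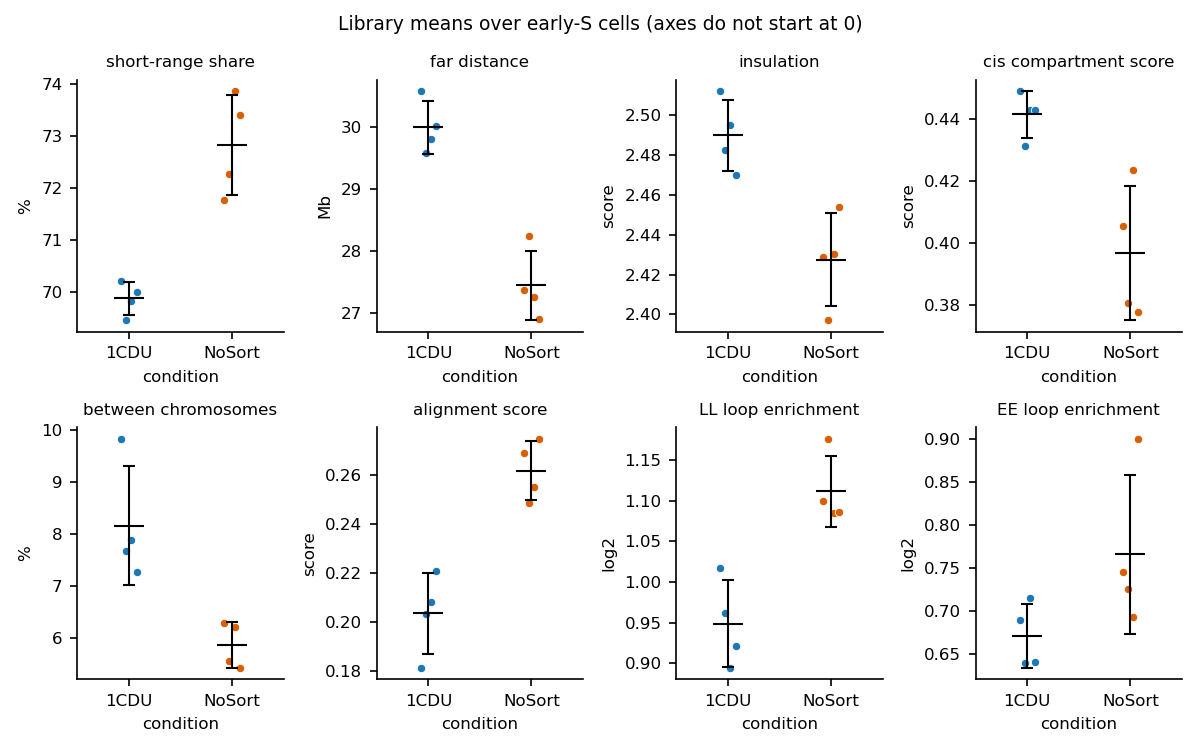
Library means over early-S cells (points) of 8 measures in 1CDU and NoSort, with mean ± SD over 4 libraries each in black and axes that do not start at 0. The sets do not overlap in 7 panels, for example at 29.6 to 30.6 Mb and 26.9 to 28.2 Mb for the far distance, and overlap for EE loops.

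The adjusted p of 0.0476 depends on how early-S is summarised. With the median of the cells in place of the mean, 0 of 15 measures passed (smallest exact permutation adjusted p = 0.0536), insulation being the 1 of the 9 that no longer separated the sets. The same count of 0 resulted with cells of middle depth (adjusted p = 0.0536) and with adjustment over all level comparisons together (adjusted p = 0.107). Leaving out any 1 of the 8 libraries gave no passing measure, since 3 against 4 libraries cannot pass, and the 9 differences kept their sign in all 8 cases. Adding the 7 early-S cells of diploid 27 as another NoSort library left 8 measures past the threshold (exact permutation adjusted p = 0.0298), without LL loops (adjusted p = 0.0529).

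Early-S is a span, and the conditions did not fill it evenly. In the authors' order of cells along the cycle, early-S cells of 1CDU had a median position of 761 (25th to 75th percentile 560 to 1011) and those of NoSort 967 (677 to 1135). The short-range share had a median of 69.9% over 1CDU cells and 73.4% over NoSort cells. NoSort cells thus lay later within the group, and also within late-S/G2 (median position 1626 against 1433). In G1 the median positions were 252.5 in 1CDU and 288 in NoSort, while the median short-range share was higher in 1CDU (58.4% against 57.0%). The 2 groups meet at a short-range share between 62.2%, the lowest value in early-S, and 64.7%, the highest in G1, so that the short-range share of a group is in part set by how the groups were drawn.

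To set cells of like short-range share side by side, early-S cells were limited to the 25th to 75th percentile of the short-range share over both conditions. The short-range share was then 71.0% and 71.1%. Over 4 libraries each, the share of contacts between chromosomes was 8.56% ± 1.04 in 1CDU and 6.14% ± 0.406 in NoSort, the cis compartment score 0.446 ± 0.00435 and 0.397 ± 0.0313, and the alignment score 0.208 ± 0.0101 and 0.252 ± 0.0224 (SD). These sets did not overlap (exact permutation p = 0.0286, adjusted p = 0.0714). The far distance was 29.7 ± 0.875 and 27.9 ± 0.826 Mb (SD, n = 4 each; exact permutation adjusted p = 0.122) and insulation 2.514 ± 0.0197 and 2.466 ± 0.0595 (adjusted p = 0.300), and both overlapped. The mitotic-band share, equal before, was now lower in every 1CDU library, at 11.7% ± 0.199 against 12.5% ± 0.309 (SD, n = 4 each; exact permutation adjusted p = 0.0714).

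Along the short-range share in steps of 5 points, the mean far distance was highest at different steps in the 2 conditions, and a difference in course was not tested. In 1CDU the library mean was 24.3 Mb at 50 to 55%, 27.1 at 55 to 60%, 30.1 at 60 to 65% and 30.4 at 65 to 70%, and 28.5 Mb at 75 to 80%. In NoSort it was 28.3 Mb at 50 to 55%, 30.1 at 55 to 60%, 27.9 at 65 to 70%, 27.1 at 75 to 80% and 22.8 at 85 to 90%. The SD over 3 NoSort libraries was 3.63 Mb at the first step and 1.20 Mb at the second, so the rise between them lies within the spread. Among the steps with a value, the mean was highest between 60 and 70% in 1CDU and at 55 to 60% in NoSort. There is no NoSort value at 60 to 65%, where fewer than 3 libraries had 3 cells, so the NoSort peak cannot be placed. The first step rests on 17 cells of 1CDU and 13 of NoSort, and the second on 16 of NoSort.

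Contacts between chromosomes were higher in 1CDU at each of the 5 steps that hold both conditions, for example 8.56% ± 0.854 against 6.17% ± 0.315 at 70 to 75% (SD, n = 4 each). The alignment score in 1CDU went from 0.295 at 50 to 55% to 0.201 at 65 to 70% and 0.228 at 75 to 80%. In NoSort it was 0.220 at the first step and 0.308 at 85 to 90%. Insulation was close between the conditions at 75 to 80%, a step that holds cells of both early-S and late-S/G2. It was 2.291 ± 0.00998 in 1CDU (SD, n = 4) and 2.308 ± 0.0442 in NoSort (SD, n = 5).

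Between G1 and early-S, the far distance and insulation went opposite ways in the libraries of the 2 conditions. Of the 15 differences between these changes, 0 (0%) passed (exact permutation with Benjamini-Hochberg adjustment, smallest adjusted p = 0.0714), and 6 had an unadjusted p at the smallest possible value of 0.0286 without overlap. The far distance was higher in early-S than in G1 by 4.403, 3.40, 2.07 and 1.22 Mb in the 1CDU libraries and lower in the NoSort libraries (changes of -2.99, -0.268, -4.15 and -1.22 Mb). The mean changes of 2.77 ± 1.41 and -2.16 ± 1.74 Mb (SD, n = 4 each) differed by 4.93 Mb. Insulation went the same ways, with changes of 0.0173, 0.0213, 0.0524 and 0.0073 in 1CDU and -0.113, -0.0840, -0.121 and -0.0228 in NoSort. These directions were the same in 4 of 4 libraries of each condition for both measures.

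The alignment score was lower in early-S in 4 of 4 libraries of 1CDU (mean change -0.0529 ± 0.0270) and higher in 3 of 4 libraries of NoSort (0.0543 ± 0.0494, SD, n = 4 each), diploid 30_31 being the exception at -0.00492. Contacts between chromosomes were more frequent in early-S by 1.64 ± 0.113 points in 1CDU. In NoSort the change was 0.251 ± 0.960 points (SD, n = 4 each), and diploid 32_33 alone had a negative change, of -0.978. The short-range share and the replication score were higher in early-S in all 8 libraries. They differed in size, by 12.1 ± 0.599 against 16.1 ± 1.44 points for the short-range share and by 0.0737 ± 0.00653 against 0.124 ± 0.0123 for the replication score (SD, n = 4 each). The share without digestion differed little between G1 and early-S of a library, by 0.634 ± 1.85 points in 1CDU and 0.0484 ± 1.55 in NoSort (SD, n = 4 each; exact permutation p = 0.714).

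**Figure D4:**
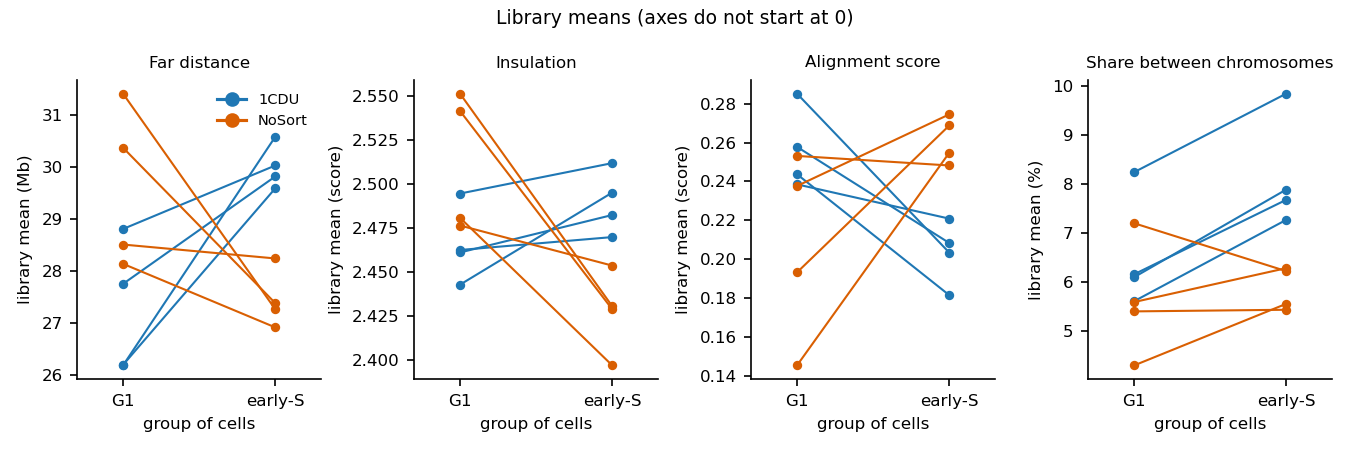
Library means in G1 and early-S (x axis) joined by a line for each of 4 libraries of 1CDU and 4 of NoSort, for 4 measures on axes that do not start at 0. The lines of the far distance and of insulation slope up in all 1CDU libraries and down in all NoSort libraries.

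With early-S taken as the mean of 4 steps of equal weight from 60 to 80% of the short-range share, 3 NoSort libraries had 10 or more such cells and cells in every step. The step from 60 to 65% rests on 4, 1 and 2 cells in these libraries (diploid 28_29, 30_31 and 32_33) and on 7 to 18 cells in the 1CDU libraries. The changes in far distance were then 2.68 ± 1.40 Mb in 1CDU (SD, n = 4) and -2.02 ± 2.34 Mb in NoSort (SD, n = 3). For insulation they were 0.00837 ± 0.0205 and -0.0767 ± 0.0213, a spread in 1CDU too wide for all 4 changes to be above 0. The sets did not overlap, at the smallest p that 4 against 3 libraries allow (exact permutation p = 0.0571, adjusted p = 0.171). The difference for the replication score was -0.0203 in place of -0.0508. The far distance of early-S itself was 29.9 ± 0.342 Mb in 1CDU (SD, n = 4) and 28.1 ± 0.866 Mb in NoSort (SD, n = 3), without overlap (exact permutation p = 0.0571, adjusted p = 0.0952). Insulation was 2.474 ± 0.0256 and 2.448 ± 0.0235, with overlap.

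In late-S/G2 the 1CDU libraries hold few cells, 10, 3 and 9 in diploid 11, 12 and 13, against 5 to 61 in the 5 NoSort libraries. Of the 15 measures, 0 (0%) passed (3 against 5 libraries, exact permutation with Benjamini-Hochberg adjustment, smallest adjusted p = 0.107). For 5 measures the sets did not overlap and the unadjusted p was the smallest possible, 0.0357. These were the short-range share, contacts between chromosomes, the replication score, the share without digestion and the duplicated share. Contacts between chromosomes took 8.74%, 6.40% and 6.17% in 1CDU and 4.50%, 4.38%, 4.53%, 4.43% and 3.94% in NoSort. The replication score was 1.33, 1.24 and 1.36 in 1CDU and between 1.16 and 1.23 in NoSort. The short-range share was 79.9% ± 1.34 (SD, n = 3) and 82.3% ± 0.189 (SD, n = 5). The other 10 measures overlapped, with exact permutation adjusted p from 0.134 to 0.929. Among them, the far distance was 28.4 ± 1.26 Mb in 1CDU and 25.3 ± 1.22 Mb in NoSort, and insulation 2.185 ± 0.0263 and 2.232 ± 0.0213 (SD).

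The G1 and early-S values together, averaged with equal weight within a library, gave 0 of 15 (0%) passing measures (4 against 4 libraries, exact permutation with Benjamini-Hochberg adjustment, smallest adjusted p = 0.107). At the smallest unadjusted p of 0.0286 were 4 measures, the cis compartment score (0.398 ± 0.00513 against 0.363 ± 0.0194, SD, n = 4 each), LL loops (0.95 ± 0.01 against 1.07 ± 0.04 on the log2 scale), the share without digestion and the duplicated share. Neither the cis compartment score nor LL loops had separated the conditions in G1 alone (exact permutation adjusted p = 0.245 each). The differences in far distance (0.0913 Mb), insulation (0.00755) and the alignment score (-0.00455) had opposite signs in G1 and early-S and nearly cancelled.

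The spread between cells of a library was also compared. In early-S the cell to cell SD was larger in NoSort for 5 measures without overlap, but 0 of 15 (0%) passed (4 against 4 libraries, exact permutation with Benjamini-Hochberg adjustment, adjusted p = 0.0857 for these 5). For insulation the SD was 0.101, 0.127, 0.141 and 0.136 in 1CDU and 0.222, 0.183, 0.209 and 0.206 in NoSort. Every NoSort library thus had the larger spread of this score of domain borders. For the cis compartment score the mean SD was 0.0787 ± 0.00675 and 0.111 ± 0.0139, for the trans compartment score 0.0916 ± 0.00509 and 0.111 ± 0.00713, for the mitotic-band share 1.34 ± 0.112 and 1.83 ± 0.217 points, and for the duplicated share 0.7499 ± 0.264 and 1.61 ± 0.220 points (SD over 4 libraries each). The SDs of the short-range share were 4.31 ± 0.174 and 4.30 ± 0.343 points. In G1, 0 of 15 (0%) passed and 0 had an unadjusted p under 0.05 (exact permutation with Benjamini-Hochberg adjustment, smallest adjusted p = 0.321).

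Because digestion separated the conditions, each measure was set against it among cells within a library, where the condition is constant. In early-S, the share of contacts between chromosomes was lower in cells with more DNA without digestion in all 8 libraries, with Spearman's rho from -0.619 (diploid 11, 47 cells) to -0.304 (diploid 32_33, 39 cells) and a median of -0.458. Contacts per cell were lower too in all 8, from -0.732 to -0.0808. These are descriptions over cells of a library, which share its processing, and depth and digestion move together in them. For the far distance the 8 values lay between -0.122 and 0.251, for the alignment score between -0.233 and 0.196 and for insulation between -0.274 and 0.186, on both sides of 0. The cis compartment score had values from -0.213 to 0.571, with 5 of 8 below 0. For LL loops 1 of 8 was below 0, with values from -0.0921 to 0.363 and a median of 0.197. In G1, all 4 libraries with at least 20 cells, all of 1CDU, had values below 0 for contacts between chromosomes (-0.506 to -0.0951).

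In steps of 5 points of the share without digestion, contacts between chromosomes in early-S cells of 1CDU went from 10.7% ± 1.39 (SD over 20 cells of 1 library) at 20 to 25% down to 5.94% ± 0.735 (15 cells) at 50 to 55%. The shared steps had means over cells of 7.90% in 1CDU (97 cells) and 8.30% in NoSort (6 cells, SD 3.12) at 35 to 40%, where NoSort was the higher. In the other 3 shared steps 1CDU was the higher. The means were 7.12% (33 cells) and 6.53% (44 cells) at 40 to 45%, 6.61% (22 cells) and 6.13% (46 cells) at 45 to 50%, and 5.94% (15 cells) and 5.20% (73 cells) at 50 to 55%, for 1CDU and NoSort. The mean far distance was between 29.6 and 31.05 Mb in all 7 steps of 1CDU and between 27.1 and 28.2 Mb in all 4 of NoSort. Its SD over the cells of a step was 2.59 to 3.49 Mb. Cells of a step were pooled over libraries and not matched for place within early-S, and a part of digestion in these differences was not tested. The alignment score was 0.189 in 1CDU and 0.269 in NoSort at 45 to 50%. The cis compartment score was 0.449 and 0.379 at that step, but 0.431 and 0.419 at 50 to 55%, where the conditions came close.

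**Figure D5:**
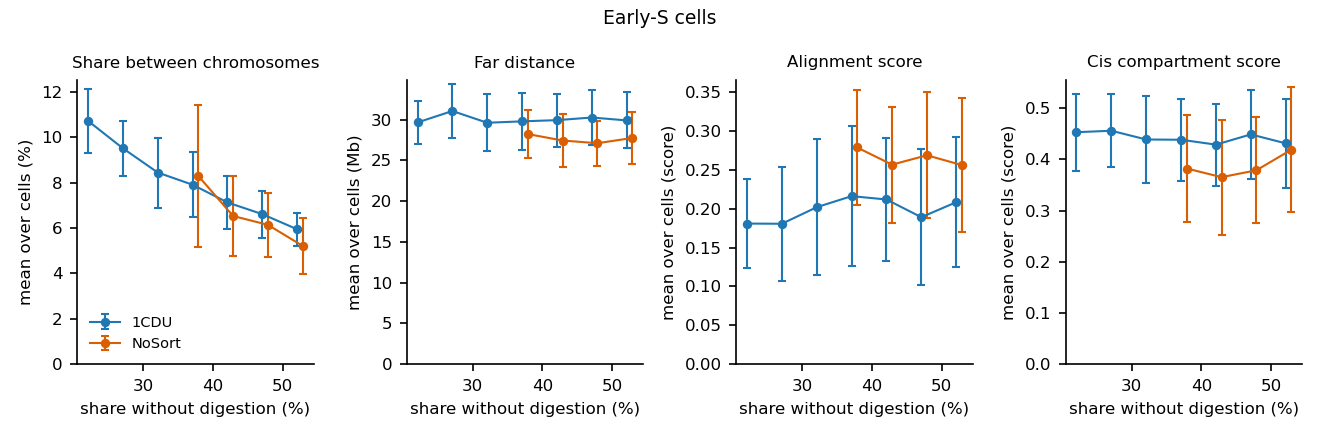
Means over early-S cells in steps of 5 points of the share without digestion (x axis, percent) for 1CDU and NoSort, with bars of 1 SD over cells, for 4 measures (y axes from 0). Contacts between chromosomes go down along the axis in both conditions, from 10.7% to 5.94% in 1CDU and from 8.30% to 5.20% in NoSort. At each shared step the mean far distance is higher and the mean alignment score lower in 1CDU, with bars that overlap.

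Among early-S cells in the overlap of the conditions in digestion, between 40.5% and 50.5%, 53 cells of 1CDU and 95 of NoSort remained. With at least 10 cells a library, 2 libraries of 1CDU stood against 4 of NoSort, and no p under 0.133 was possible. The difference in contacts between chromosomes was 0.514 points in place of 2.29 (6.79% ± 0.402, n = 2, and 6.28% ± 0.198, n = 4, SD), and the libraries still did not overlap. The far distance still differed by 2.801 Mb (30.2 ± 0.122 and 27.4 ± 0.276 Mb), the alignment score by -0.0593 (0.203 ± 0.0154 and 0.262 ± 0.00969) and the cis compartment score by 0.0579 (0.434 ± 0.0212 and 0.376 ± 0.0129), without overlap. The LL loop difference was 0.02 in place of -0.16. Place within early-S was not matched in these cells. The short-range share was 69.3% ± 0.188 in 1CDU and 72.4% ± 0.338 in NoSort, and the replication score 1.160 and 1.190, both without overlap. Contacts per cell were 103181 in 1CDU and 140249 in NoSort, with overlap. The part of place and depth in the differences that remained was not tested.

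With a minimum of 3 cells, chosen after seeing that few libraries remained, 4 libraries stood against 5. The far distance (difference 3.03 Mb), the cis compartment score (0.0840) and the alignment score (-0.0564) did not overlap (exact permutation p = 0.0159, adjusted p = 0.0595). The difference in contacts between chromosomes was 0.488 points (exact permutation adjusted p = 0.298), and that in LL loops -0.09 (adjusted p = 0.540). In these cells the duplicated share still separated the conditions, at 1.83% ± 0.102 (SD, n = 4) and 5.71% ± 1.34 (SD, n = 5), and its part in the other differences was not tested. The short-range share was 70.0% in 1CDU and 72.6% in NoSort (exact permutation adjusted p = 0.0952), and the part of place within early-S was not tested either. In G1 the overlap held 16 cells of 1CDU and 28 of NoSort and gave no comparison at a minimum of 10 cells a library.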

How the data were processed

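The submitters' processing notes name Bowtie2 and the genome build mm9. The authors deposited 1 row of features per cell: contacts per cell as a count, several shares as a fraction (shown in percent), scores whose scale is not defined (compartments, insulation, replication, alignment, coverage deviation; each a score per the file headers) and loop enrichments read as log2 from the range of the deposited values. The far distance was deposited in bp and is shown in Mb.

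Passing cells were averaged per library and group (at least 10 cells, 3 in late-S/G2), and library values were tested by 2-sided exact permutation with Benjamini-Hochberg adjustment over 15 measures (threshold 0.05). The deposited list of cells gave the sample of each batch number, and diploid 27, not in that list, by the number in its title. Post-M and pre-M had too few cells for levels. Alternatives were minimums of 5 and 20 cells, medians, cells between the 25th and 75th percentiles of depth or of short-range share, cells of overlapping digestion (from the higher 5th to the lower 95th percentile), joint adjustment and leave-one-out. Relations to digestion were Spearman's rho where a library had 20 or more cells. The minimum of 3 cells in narrowed sets and the equal weighting of steps were chosen after seeing the data. The compared cells and measures were chosen with earlier results of these data known, the opposite changes of far distance and insulation among them, so these are not independent support. All 15 measures were tested in each comparison, those past the threshold are given by library and the others by means, counts or ranges of p; no gene or cell type marker is named, since the table holds no genes. Quality control and groups are the authors'. The software was Python 3.11.15 with scipy 1.17.1, numpy 2.4.6, matplotlib 3.10.9 and pandas 2.3.3, and the test was checked against scipy's and on simulated data.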

Additional observations from a re-analysis of the deposited data

Results flagged for a closer look

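In 6 of 105 sets of 4 or 5 library values, 1 library stood apart from the others by Dixon's criterion, and chance flags about 1 in 20 such sets. Diploid 11 had 25.7% without digestion in G1, below the other 1CDU libraries. Diploid 30_31 had an LL loop enrichment of 1.18 (log2) in early-S, above the other NoSort libraries. In late-S/G2, diploid 34_35 had 3.94% of contacts between chromosomes and diploid 28_29 had 46.8% without digestion, both the lowest of NoSort. From G1 to early-S, diploid 2_14 had a change of 11.2 points in the short-range share, the lowest of 1CDU, and of 0.0834 in the replication score, the highest.

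The changes from G1 to early-S had opposite signs in all libraries of the 2 conditions for the far distance (difference 4.93 Mb) and for insulation (difference 0.110). Each difference was tested as above (exact permutation adjusted p = 0.0714). With equal weight over steps of early-S, the insulation change was 0.00837 ± 0.0205 in 1CDU (SD, n = 4). That spread is too wide for all 4 libraries to have a change above 0. The conditions differ in digestion, duplicated share and place within the groups of cells at the same time, and these cannot be told apart from the condition.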

How the results depend on the processing

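The 9 passing measures of early-S became 0 with medians, cells of middle depth, cells of overlapping digestion (minimum 10 or 3), cells of middle short-range share, equal weight over steps, joint adjustment and each library left out (0 to 0), and were 8 and 9 with minimums of 5 and 20 cells. Overlapping digestion at a minimum of 10 left 2 against 4 libraries. Equal weight over steps and each library left out gave 3 against 4. No measure can pass with so few libraries, so these counts of 0 were fixed by the design. The other comparisons across measures had 0 under each alternative that gave a value. The 3 passing groups of cells were 0 to 4, and the difference in passing cells 12.6 to 19.4 points, with 1 library left out; the count of 4 was without diploid 27.

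Signs turned for these differences (1CDU minus NoSort). In early-S the mitotic-band share (0.0104 points) was -0.0637 with a minimum of 5 cells, -0.195 at middle depth, -0.166 and -0.164 in overlapping digestion (minimum 10 and 3), -0.839 at middle short-range share, -0.939 with equal weights and -0.119 to 0.129 with 1 library left out, and LL loops were 0.018 in overlapping digestion. In late-S/G2, LL loops (0.017) were -0.16 and -0.33 with minimums of 5 and 10 cells, -0.15 at middle depth, -0.36 at middle short-range share and -0.16 to 0.17 with 1 library left out, and the cis compartment score was -0.0142 in overlapping digestion. In the mean of G1 and early-S, the far distance was -0.231 Mb with medians and -0.243 to 0.361 Mb with 1 library left out, insulation -0.00284 to 0.0145 and the alignment score -0.0160 to 0.00267. The SD of the trans compartment score in early-S was 0.00241 in overlapping digestion. For changes from G1, equal weights gave -0.108 points for digestion (-0.0455 to 1.35 with 1 library left out) and 0.0683 for the duplicated share. The causes were not tested.

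In G1, a minimum of 20 cells and cells of middle depth, of middle short-range share (minimum 10) or of overlapping digestion left no NoSort or no 1CDU library, and so gave no value. Failing cells have no group, so composition over all listed cells could not be computed. No paired analysis was possible because the libraries of 1CDU and NoSort share no number. The late-S/G2 comparison rests on 3 to 10 cells in each 1CDU library.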

Other observations

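In each of the 4 NoSort libraries that join 2 batch numbers, the duplicated share was higher in the lower number. It was 6.97% (55 cells) in 28 and 4.84% (67 cells) in 29, 6.61% (54) in 30 and 4.01% (50) in 31, 8.63% (52) in 32 and 5.61% (48) in 33, and 5.50% (36) in 34 and 2.68% (42) in 35. The share without digestion was between 45.9% and 49.6% over these 8 batch numbers.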
